A study of Mus musculus with 6 samples.

Results

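The 10 genes described here build the coat of the hepatic lipid droplet, or make and break down the triglyceride inside it. They were chosen by symbol from the deposited count table. Cidea, Cidec, Plin2, Plin4 and Plin5 code for coat proteins, G0s2 for a lipase inhibitor, Pnpla2 and Pnpla3 for lipases, and Lpin1 and Dgat2 for enzymes of triglyceride synthesis. All 10 symbols were found among the 22183 genes of the table, and all 10 were among the 14681 genes with enough reads to be tested. In DOX livers the transcripts of 3 coat genes, Cidec, Plin2 and Plin4, fell to between 2.78-fold and 9.53-fold below PBS livers. That of Lpin1 rose 2.63-fold, and the other 6 genes did not pass the test. Of the FPKM (a level per transcript length) summed over these 5 coat genes, Plin2 made up 37.7 ± 3.04% in DOX livers and 61.4 ± 0.767% in PBS livers (SD, n = 3 each), and Plin5 made up 58.4 ± 2.55% in DOX livers and 24.5 ± 2.42% in PBS livers. The sum leaves out Plin3 and the abundant Cideb, which also code for coat proteins, so these are not shares of the whole coat. The shares also depend on the gene lengths behind the deposited FPKM. In reads, not divided by length, Plin2 stood above Plin5 in every library.

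RNA sequencing was made of whole liver from mice of the genotype BucheKI/KI-Hep, in which butyrylcholinesterase is overexpressed in hepatocytes, per the labels. The 3 samples of the group S2W-DOX (DOX livers below) were set against the 3 of the group S2W-PBS (PBS livers below). Both groups carry the same genotype and both received the DDC treatment, so no liver without the allele or without DDC enters the comparison. The mice were fed chow, and the labels do not expand DDC, DOX or S2W, name the promoter that drives the allele, or give age, sex, dose or sampling time. Nor do they say that each sample came from a separate mouse, so the spread behind each p-value is that among these samples and may be technical in part.

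Triglyceride in hepatocytes is stored in droplets that bud from the endoplasmic reticulum and are covered by a coat of perilipins and CIDE proteins. Perilipins shield the stored fat from lipases, while CIDE proteins gather at the contact between droplets and let lipid pass into the larger one. Adipose triglyceride lipase, the product of Pnpla2, takes the first fatty acid off triglyceride; its activator is ABHD5 and its inhibitor is G0S2. On the synthetic side, lipins turn phosphatidate into diacylglycerol, and DGAT enzymes add the last acyl chain.

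Library totals were 32476725 to 40298256 reads in DOX livers and 40592030 to 41921404 in PBS livers. Bche, the gene behind the design, had 1937, 1866 and 1763 CPM (read counts scaled to a common library size) in DOX livers, against 177, 177 and 206 CPM in PBS livers. It was 9.94-fold higher in DOX livers (log2 fold change 3.31, SE 0.14). That size includes TMM factors, which correct for a few genes taking a large part of the reads. All 13 mitochondrial genes together took 5.11 to 6.81% of the reads in DOX livers and 3.45 to 4.58% in PBS livers, and leaving them out changed the call of none of the 10 genes. The quasi-likelihood test of edgeR was run on all 14681 genes, and a gene was called changed where its Benjamini-Hochberg adjusted p was under 0.05.

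Of the 10 genes, 1 was called higher in DOX livers, where 13.5% of all genes tested were called higher. Another 3 were called lower, where 14.0% of all genes tested were. Every DOX library lay above every PBS library for 2 of the 10 (Pnpla2 and Lpin1), against 21.8% of all genes tested. Every DOX library lay below every PBS library for 5 of the 10 (Cidec, Cidea, Plin2, Plin4 and G0s2), against 22.3% of all genes tested, and the groups overlapped for Plin5, Pnpla3 and Dgat2. The median log2 fold change was -0.42 over the 10 genes and -0.01 over all genes tested. Scaled by library size alone, the median of all genes was -0.16, with 1028 genes called higher and 3429 lower, compared with 1975 higher and 2062 lower with TMM scaling.

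**Figure D1:**
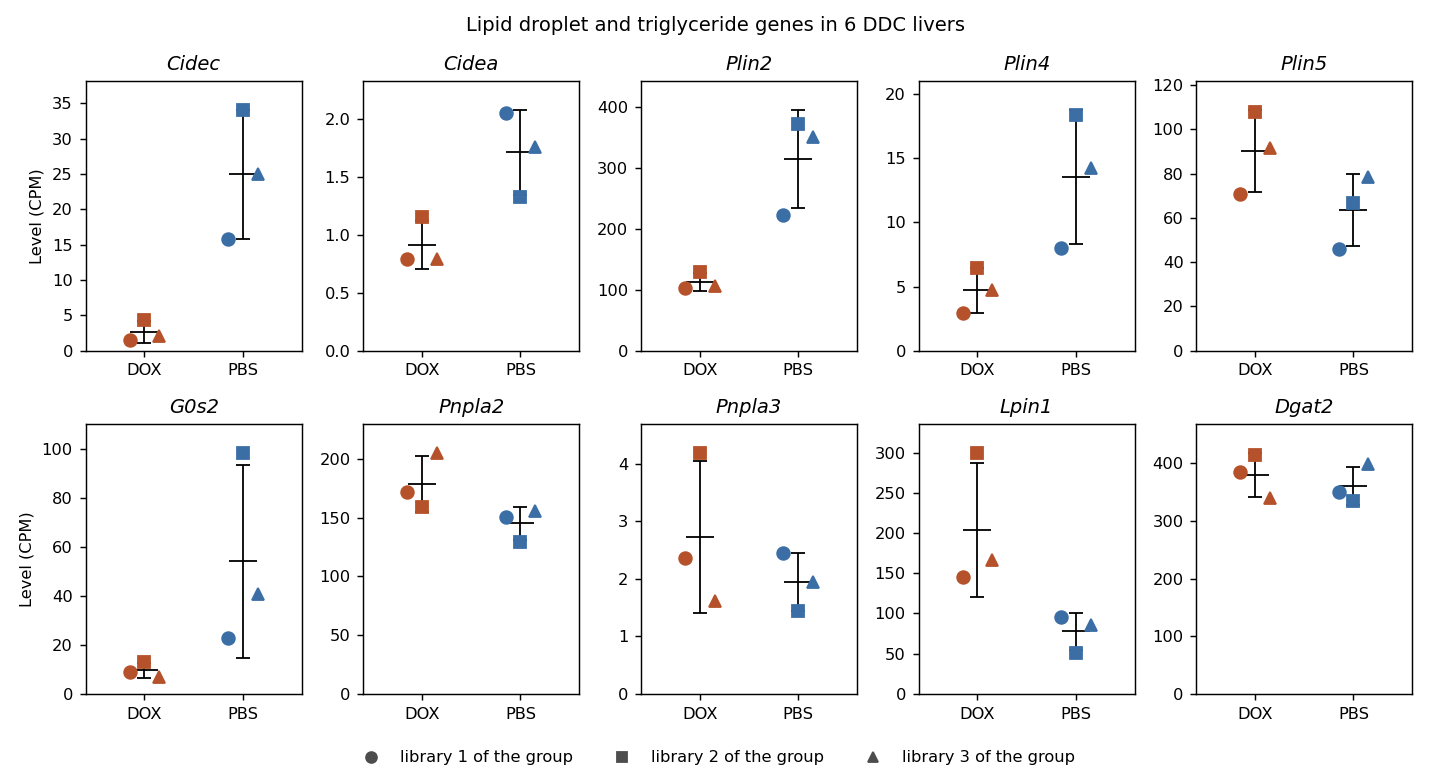
Level of each of the 10 genes in CPM (linear axes from 0) in the 3 DOX and 3 PBS libraries; each symbol is a library, its shape gives the library number, and the bar is the mean with its SD. All DOX symbols lie below all PBS symbols for Cidec, Cidea, Plin2, Plin4 and G0s2, and above them for Pnpla2 and Lpin1.

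Per kilobase of the deposited gene length (FPKM, the scale used here to compare different genes), the 10 genes spanned a wide range. In DOX livers the order was Dgat2 at 159.6 FPKM, Pnpla2 at 64.4, Plin5 at 40.7, Plin2 at 26.0, Lpin1 at 25.7, G0s2 at 10.8, Cidec at 1.41, Cidea at 0.741, Plin4 at 0.632 and Pnpla3 at 0.516. The library ranges of neighbours overlapped for Plin2 and Lpin1, for Cidec and Cidea, for Cidea and Plin4, and for Plin4 and Pnpla3. In PBS livers the order was Dgat2 at 169 FPKM, Plin2 at 80.6, G0s2 at 68.2, Pnpla2 at 58.1, Plin5 at 32.0, Cidec at 15.03, Lpin1 at 10.9, Plin4 at 2.03, Cidea at 1.55 and Pnpla3 at 0.413. There the ranges overlapped for Plin2 and G0s2, for G0s2 and Pnpla2, for Cidec and Lpin1, and for Plin4 and Cidea. By group mean, Dgat2 therefore stood first in both groups and Pnpla3 last, while Plin2 stood second in PBS livers and below Plin5 in DOX livers. The last place of Pnpla3 depends on its deposited length of 4962 bases, against 1548 exon bases in GENCODE vM21. Lengths differed for other genes too, so the order between genes depends on them. Deposited and GENCODE lengths were 7483 and 9665 bases for Lpin1, 2251 and 3083 for Dgat2, and 4126 and 3512 for Plin2. The second place of Plin2 did not hold in every PBS library. In PBS 1 Pnpla2 (61.0 FPKM) exceeded Plin2 (57.9), and in PBS 2 G0s2 (126) exceeded Plin2 (97.3).

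Many droplet genes carry binding sites of nuclear receptors such as the PPARs, which are built from the core AGGTCA. The sequences upstream of 4 of the genes the results turn on are shown, because they differ in that core. The 4 genes are Plin2 and Plin5, whose order in deposited FPKM differed between the groups, Lpin1, which rose, and Cidec, which fell furthest. Plin5 and Cidec each have 2 RefSeq starts, and the windows of both inner starts lie within the annotated gene. That of Plin5 holds 47 annotated exon bases and is not shown, while that of Cidec holds none and is shown. The sequences shown are RefSeq sequences of the build GRCm38.p6, all from the minus strand and written 5′ to 3′. They run up to the first annotated exon, except for the inner Cidec stretch, which runs up to the inner start. The core is in capitals (TGACCT is AGGTCA read on the opposite strand).
Plin2, chr4:86670061-86670309: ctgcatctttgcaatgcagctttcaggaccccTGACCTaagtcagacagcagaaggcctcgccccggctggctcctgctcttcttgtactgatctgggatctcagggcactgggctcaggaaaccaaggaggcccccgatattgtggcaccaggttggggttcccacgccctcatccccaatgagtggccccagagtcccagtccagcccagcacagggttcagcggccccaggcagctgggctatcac
Plin5, chr17:56117597-56117798: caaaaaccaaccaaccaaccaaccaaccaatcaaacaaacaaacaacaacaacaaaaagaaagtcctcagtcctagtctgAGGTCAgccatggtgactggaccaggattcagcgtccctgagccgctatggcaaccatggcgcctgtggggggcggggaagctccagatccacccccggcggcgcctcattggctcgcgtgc
Lpin1, chr12:16610967-16611216: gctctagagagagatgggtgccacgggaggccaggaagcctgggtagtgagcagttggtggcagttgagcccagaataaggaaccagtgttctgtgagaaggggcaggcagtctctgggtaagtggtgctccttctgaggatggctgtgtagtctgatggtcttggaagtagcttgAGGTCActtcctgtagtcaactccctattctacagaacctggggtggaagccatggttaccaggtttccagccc
Cidec, outer start, chr6:113435761-113436010: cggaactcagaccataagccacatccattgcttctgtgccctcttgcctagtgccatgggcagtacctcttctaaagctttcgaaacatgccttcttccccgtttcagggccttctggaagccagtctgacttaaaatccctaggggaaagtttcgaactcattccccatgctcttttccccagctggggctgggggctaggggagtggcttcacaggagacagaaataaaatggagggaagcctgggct
Cidec, inner start, chr6:113434765-113435014: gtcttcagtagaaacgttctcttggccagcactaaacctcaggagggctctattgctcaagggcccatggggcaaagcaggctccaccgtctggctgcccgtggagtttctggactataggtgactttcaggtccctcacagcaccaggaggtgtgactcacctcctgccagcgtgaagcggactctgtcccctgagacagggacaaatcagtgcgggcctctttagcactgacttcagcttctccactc
The core lies 218 to 213 bases before the start of Plin2 on the opposite strand, 170 to 165 bases before the outer start of Plin5 (a distance that includes 48 bases of annotated exon not shown), and 74 to 69 bases before that of Lpin1; neither Cidec stretch and not the window of the inner Plin5 start holds it.

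RefSeq windows of 250 bases before the start were matched for 8 of the 10 genes, 10 windows in all, and each motif was searched on both strands. AGGTCA was present in 3 of the 10 windows and in 14.0% of all 32851 promoter windows. The direct repeat AGGTCANAGGTCA (0.0335% of all windows), the E-box CACGTG (6.02%) and the glucocorticoid element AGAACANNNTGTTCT (0.00913%) had no match in the 10 windows. A match to these letters is a description of the sequence and not a binding site.

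Cidec, which codes for the protein that fuses droplets into larger ones, fell the most. The gene lies at chr6:113424634-113435760 on the minus strand (GRCm38, GENCODE vM21). It had 1.45, 4.36 and 2.06 CPM in DOX livers, against 15.8, 34.0 and 25.0 CPM in PBS livers. The highest DOX library, DOX 2, stood below the lowest PBS library. The mean was 2.63 ± 1.53 CPM in DOX livers and 24.9 ± 9.13 CPM in PBS livers (SD, n = 3 each), a log2 fold change of -3.25 (SE 0.49, edgeR adjusted p = 0.00651). The call held under all 14 alternatives, with adjusted p-values of 1.48e-07 to 0.0287.

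Cidea, its relative best known from brown fat and fatty liver, was scarce in every library. It had 0.794, 1.15 and 0.793 CPM in DOX livers, against 2.05, 1.32 and 1.76 CPM in PBS livers, from 25 to 39 reads a library in DOX livers and 58 to 89 in PBS livers. The groups did not overlap, but the difference missed the threshold (log2 fold change -0.90, SE 0.33, edgeR adjusted p = 0.0578). Over the alternatives the adjusted p ran from 0.0110 to 0.185, and without DOX 2 it was 0.0394. Cideb, the CIDE gene of the normal hepatocyte, where it serves lipoprotein lipidation, was far more abundant, at 118 ± 19.8 FPKM in DOX livers and 141 ± 5.16 FPKM in PBS livers. Its log2 fold change was -0.10 (edgeR adjusted p = 0.625). Cidec transcripts thus amounted to 0.0122 ± 0.00659 per Cideb transcript in DOX livers and 0.105 ± 0.0366 in PBS livers (FPKM ratio within a library, SD, n = 3 each).

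Plin2, the perilipin that coats droplets in most cell types and is degraded when it is not bound to fat, fell with the tightest error of the coat genes. It lies at chr4:86648386-86670060 on the minus strand. DOX livers had 103, 130 and 107 CPM, against 223, 372 and 350 CPM in PBS livers. The lowest PBS library, PBS 1, still stood above the highest DOX library. The mean was 113 ± 14.4 CPM in DOX livers and 315 ± 80.1 CPM in PBS livers, a log2 fold change of -1.48 (SE 0.18, edgeR adjusted p = 0.000581). The call held under all 14 alternatives, with adjusted p-values of 1.5e-13 to 0.00505.

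Plin4, a perilipin of adipocytes and muscle that binds small new droplets, also fell, at a low level. It had 2.91, 6.45 and 4.73 CPM in DOX livers, against 8.01, 18.4 and 14.2 CPM in PBS livers. DOX 2 and PBS 1 came closest to each other, and the groups did not overlap. The log2 fold change was -1.53 (SE 0.37, edgeR adjusted p = 0.0206). The call was lost without DOX 3 (adjusted p = 0.0666), without PBS 3 (0.0601) and with no filter on low counts (0.0983). On the log2(FPKM + 1) scale the difference shrank to -0.87, because the pseudocount is close to the gene's level. Plin4 (chr17:56100591-56109803) shares 17 of its 5777 exon bases with Hdgfl2 on the opposite strand, and whether the counting used strand is not given in the sources used here. Hdgfl2 had 31.6 ± 2.68 CPM in DOX livers and 30.6 ± 2.36 CPM in PBS livers (log2 fold change 0.05, adjusted p = 0.784).

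Plin5, the perilipin of oxidative tissues that tethers droplets to mitochondria, lies 1797 bases from Plin4 with no gene between them, and had the opposite sign. DOX livers had 70.8, 108 and 91.8 CPM, against 46.0, 66.6 and 78.4 CPM in PBS livers. PBS 3 stood above DOX 1, so the groups overlapped. The log2 fold change was 0.50 (SE 0.21, 95% interval 0.03 to 0.98), which did not pass the test (edgeR adjusted p = 0.108), although DESeq2's Wald test gave an adjusted p of 0.0426. Plin3, the perilipin found in most cells, had 68.9 ± 6.75 CPM in DOX livers and 73.9 ± 2.64 CPM in PBS livers, with a log2 fold change of -0.10 (adjusted p = 0.491). Plin1, the adipocyte perilipin, matched no symbol of the count table and so has no value here.

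**Figure D2:**
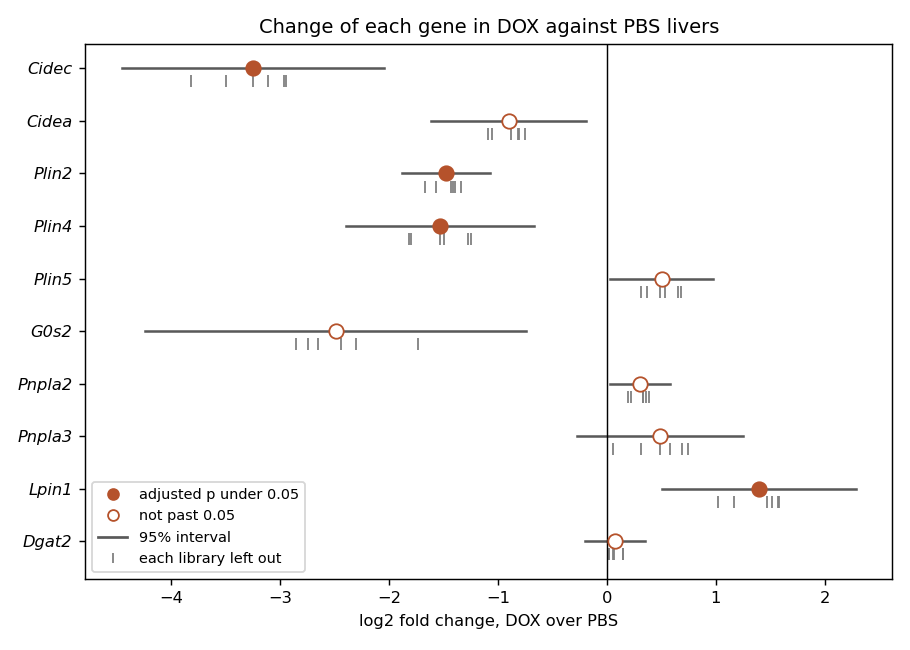
Log2 fold change of each gene, DOX over PBS, with its 95% interval; filled points have an adjusted p under 0.05 (edgeR), and the ticks under each point give the value with each library left out in turn. Cidec, Plin2, Plin4 and Lpin1 are filled, and the ticks of G0s2 reach from -2.85 to -1.73.

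Set against each other within a library, the coat transcripts changed their order in deposited FPKM. The FPKM ratio of Plin2 to Plin5 was 0.740, 0.610 and 0.590 in DOX livers, against 2.47, 2.84 and 2.27 in PBS livers. On this scale Plin5 was the more abundant of the pair in every DOX library and Plin2 in every PBS library. That order depends on the deposited lengths of 4126 bases for Plin2 and 2097 for Plin5. In CPM, which is not divided by length, Plin2 stood above Plin5 in every library. The FPKM ratios are free of the scaling between libraries, and they are described here without a test. The FPKM summed over the 5 coat genes was 56.9, 81.5 and 70.0 in DOX livers and 94.1, 157 and 143 in PBS livers. Of that sum, Cidec held 1.95 ± 0.789% in DOX livers and 11.3 ± 1.84% in PBS livers. Plin4 held 0.888 ± 0.188% in DOX livers and 1.51 ± 0.261% in PBS livers, and the shares of Cidea overlapped between the groups.

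**Figure D3:**
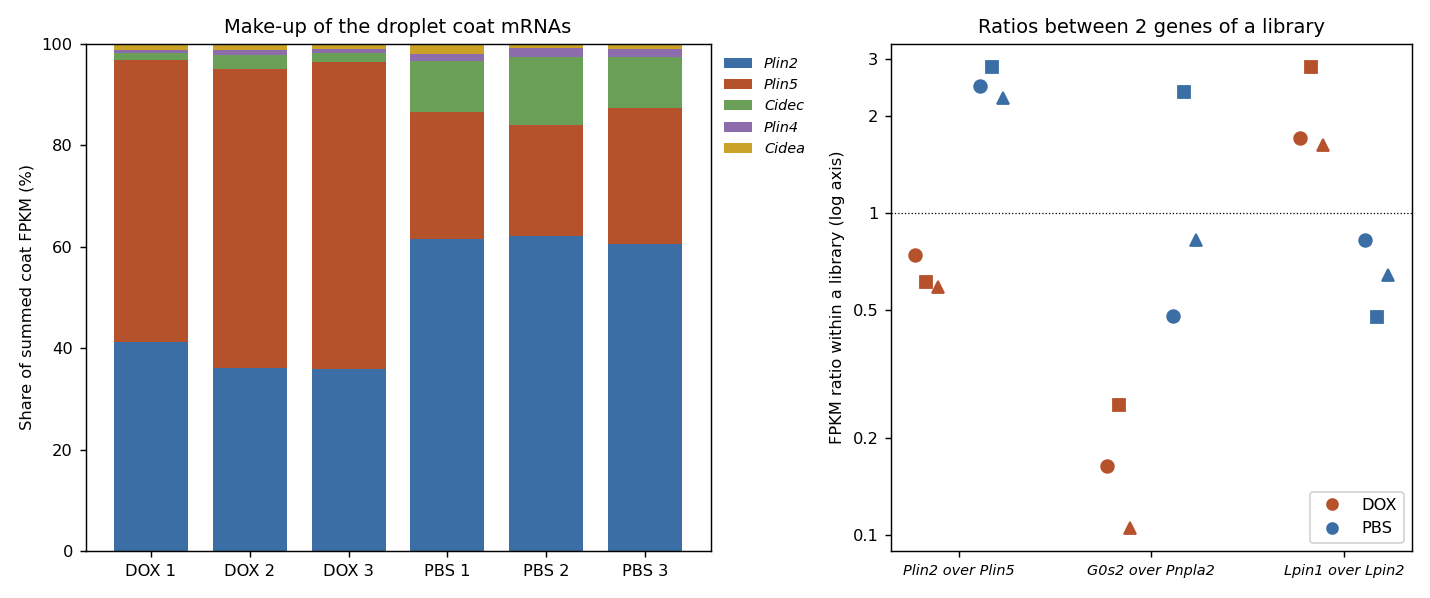
Left, share of each coat gene in the FPKM summed over the 5 coat genes, in percent, for each library. Right, FPKM ratios between genes of the same library on a log axis, with symbols shaped by library number and the dotted line at equal levels. The Plin2 over Plin5 ratio lies below 1 in all 3 DOX libraries and above 1 in all 3 PBS libraries, and the Lpin1 over Lpin2 ratio lies the other way round. The side of 1 on which a ratio lies depends on the deposited gene lengths.

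G0s2, the inhibitor of adipose triglyceride lipase, had the second largest log2 fold change of the 10 genes but also the widest spread. The gene lies at chr1:193272161-193273217 on the minus strand. It had 9.02, 12.9 and 6.92 CPM in DOX livers, against 23.0, 98.3 and 41.0 CPM in PBS livers. The groups did not overlap, but the PBS libraries spanned a 4.28-fold range, with PBS 2 far above the others. The log2 fold change of -2.49 (SE 0.66, 95% interval -4.24 to -0.74) missed the threshold (edgeR adjusted p = 0.0541). Without PBS 2 it was -1.73 with an adjusted p of 0.0142, and without PBS 1 it was -2.85 with an adjusted p of 0.0217. DESeq2's Wald test gave an adjusted p of 0.00127, and the 14 alternatives gave adjusted p-values between 0.00127 and 0.165.

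Pnpla2, the lipase that G0s2 inhibits, had 172, 159 and 205 CPM in DOX livers, against 150, 129 and 156 CPM in PBS livers. The lowest DOX library lay just above the highest PBS library in CPM, and in FPKM, which has no TMM factor, the groups overlapped. The log2 fold change of 0.30 (SE 0.13, 95% interval 0.03 to 0.57) did not pass the test (edgeR adjusted p = 0.0952), except without DOX 2 (0.39, adjusted p = 0.0290). Abhd5, the activator of the lipase, had 41.0 ± 2.55 CPM in DOX livers and 40.8 ± 0.632 CPM in PBS livers (log2 fold change 0.01, adjusted p = 0.965). The FPKM ratio of inhibitor to lipase, G0s2 over Pnpla2, was 0.164, 0.254 and 0.105 in DOX livers, against 0.478, 2.37 and 0.822 in PBS livers. The ratio was lower in each DOX library than in any PBS library. That of lipase to activator, Pnpla2 over Abhd5, was 6.21 ± 0.739 in DOX livers and 5.07 ± 0.468 in PBS livers.

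Pnpla3, the droplet protein whose human variant is linked to fatty liver disease, was the least abundant of the 10 genes in deposited FPKM. The length behind that value was 4962 bases, against 1548 exon bases in GENCODE vM21, so its rank depends on the length used. Pnpla3 also shares exon bases with Gm49513 on the same strand. It had 2.35, 4.18 and 1.62 CPM in DOX livers, against 2.44, 1.44 and 1.94 CPM in PBS livers, and the groups overlapped. The log2 fold change of 0.49 had a 95% interval of -0.27 to 1.25 (edgeR adjusted p = 0.321), which leaves its direction unresolved at 51 to 142 reads a library in DOX livers and 63 to 106 in PBS livers.

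Lpin1, the lipin that makes diacylglycerol and also acts in the nucleus as a coregulator of PPAR-alpha target genes, was the gene that rose. It lies at chr12:16535669-16610966 on the minus strand. DOX livers had 146, 299 and 166 CPM, against 95.8, 51.1 and 85.9 CPM in PBS livers. DOX 2 stood far above the other DOX libraries and PBS 2 below the other PBS libraries, and the groups did not overlap. The mean was 204 ± 83.3 CPM in DOX livers and 77.6 ± 23.5 CPM in PBS livers, a log2 fold change of 1.39 (SE 0.36, edgeR adjusted p = 0.0364). The call was lost without DOX 3 (1.52, adjusted p = 0.0571), without PBS 3 (1.47, adjusted p = 0.0970) and with no filter on low counts (1.38, adjusted p = 0.108). Without DOX 2, the library with the highest level, the gene still passed (1.02, adjusted p = 0.0328). Lpin2, the lipin of normal liver, had a log2 fold change of -0.28 (adjusted p = 0.129). The FPKM ratio of Lpin1 to Lpin2 was 1.71, 2.83 and 1.62 in DOX livers, against 0.826, 0.474 and 0.642 in PBS livers. By deposited FPKM, Lpin1 exceeded Lpin2 in all 3 DOX libraries and in no PBS library. That order depends on the gene lengths behind the FPKM. In CPM, which is not divided by length, Lpin2 stood above Lpin1 in every library. Lpin2 had 256, 317 and 307 CPM in DOX livers, against 347, 323 and 401 CPM in PBS livers. Lpin1 held 61.9 ± 7.21% of the lipin FPKM in DOX livers and 35.6 ± 6.07% in PBS livers, shares that depend on the same lengths.

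Dgat2, which esterifies newly made fatty acids into triglyceride, was the most abundant of the 10 genes and one of the steadiest. It had 386, 414 and 340 CPM in DOX livers, against 351, 335 and 398 CPM in PBS livers, and the groups overlapped. The log2 fold change was 0.07 with a 95% interval of -0.20 to 0.35 (edgeR adjusted p = 0.703), and its sign turned to -0.08 with library size alone and with limma on FPKM. Dgat1, the other enzyme of this step, had a log2 fold change of -0.23 (adjusted p = 0.149). The Dgat2 to Dgat1 FPKM ratio was 21.3 ± 2.99 in DOX livers and 17.2 ± 1.55 in PBS livers, with overlapping groups.

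The highest and lowest library of each group were counted over the 10 genes, and no such count over all genes is given. Among the DOX libraries, DOX 2 had the highest level of 9 of the 10 genes and the lowest of Pnpla2. Among the PBS libraries, PBS 2 had the highest level of Cidec, Plin2, Plin4 and G0s2 and the lowest of Cidea, Pnpla2, Pnpla3, Lpin1 and Dgat2. PBS 1 had the highest level of 3 of the genes and the lowest of 5, and PBS 3 had the highest of 3 and the lowest of 0. The coefficient of variation was 9.94% in DOX livers and 9.10% in PBS livers for Dgat2, and 31.7% in DOX livers and 72.8% in PBS livers for G0s2. The genes of the fasting and feeding list had a summed level of 6857 to 15928 CPM in DOX livers and 11586 to 23968 CPM in PBS livers. Scd1 alone took the largest part of that sum in each PBS library, with 15088, 6898 and 17719 CPM. In DOX livers Scd1 had 4089, 7984 and 1274 CPM, and it was not called changed (edgeR adjusted p = 0.209). The ranges of the sum therefore largely follow this 1 gene. The labels do not give the time of sampling or the hours since the last meal, and the part of either in these values was not tested.

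The genes whose profiles over the 6 libraries lay closest to those of the 3 called genes of largest change were found by the root mean square difference of centred log2 CPM, among 12214 genes. For Cidec these were Mup20 (0.334), Cyp4a31 (0.341) and Spc25 (0.343). For Plin4 they were C8a (0.210), Wdr76 (0.217) and Ifit1 (0.252). For Plin2 they were Brip1 (0.0738), Chordc1 (0.132) and Plxna3 (0.145). These distances are not scaled by the size of a gene's change, so those of Cidec and Plin2 are not directly comparable.

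Among 13 other genes of the droplet coat and of droplet assembly, 4 fell, 2 rose and 7 did not pass the test, with a median log2 fold change of -0.05. Fitm1, which helps droplets bud from the endoplasmic reticulum, had 1.75 ± 0.777 CPM in DOX livers and 9.34 ± 1.70 CPM in PBS livers (log2 fold change -2.40, edgeR adjusted p = 0.000602). Hsd17b11, a droplet-bound dehydrogenase, had 114 ± 9.65 CPM in DOX livers and 183 ± 14.8 CPM in PBS livers (-0.68, adjusted p = 0.00173). These 2 calls held under all 14 alternatives. Faf2, a membrane protein of the endoplasmic reticulum and droplets, fell by 0.44 on the log2 scale (adjusted p = 0.0107), or 0.0514 without PBS 3. The acyl-CoA synthetase Acsl3 rose by 0.50 (adjusted p = 0.0213), but 6 alternatives ended that call, among them library size alone (0.0741). The other calls were Fitm2, lower, and Aup1, higher, the count of lower calls was 2 without PBS 3, and that of higher calls was 0 without DOX 1 or PBS 2 and 1 without DOX 3, PBS 1 or PBS 3. With library size alone and with limma on FPKM, 0 of the 13 were called higher and 4 lower.

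Among 12 other lipases and cofactors, 5 fell (8 with limma on FPKM) and 7 did not pass, with a median log2 fold change of -0.36. The carboxylesterase Ces1f had 15.7 ± 8.32 CPM in DOX livers and 137 ± 14.5 CPM in PBS livers (-3.12, edgeR adjusted p = 0.00883). Ces1g fell by 0.55 (adjusted p = 0.00955), but genes of the Ces1 cluster are similar in sequence and the counting could split their reads. Lipc, the hepatic lipase that acts on circulating lipoproteins, had 37.7 ± 9.70 CPM in DOX livers and 73.5 ± 3.22 CPM in PBS livers (-0.96, adjusted p = 0.00273). The monoacylglycerol hydrolase Abhd6 had 14.1 ± 2.13 CPM in DOX livers and 25.2 ± 3.67 CPM in PBS livers (-0.84, adjusted p = 0.00229). These 4 calls held under all 14 alternatives, and the fifth, Aadac, was lost without DOX 3 or PBS 2.

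Among 18 other genes of triglyceride synthesis, 6 fell, 2 rose and 10 did not pass, with a median log2 fold change of -0.29. Gpat3, a glycerol-3-phosphate acyltransferase of the first step, had 5.58 ± 1.35 CPM in DOX livers and 21.4 ± 5.16 CPM in PBS livers (-1.94, edgeR adjusted p = 0.000284). Agpat2, the acyltransferase of the next step, had 240 ± 13.8 CPM in DOX livers and 129 ± 12.8 CPM in PBS livers (0.90, adjusted p = 0.000519). Acsl5, an acyl-CoA synthetase, had 244 ± 41.5 CPM in DOX livers and 485 ± 65.0 CPM in PBS livers (-0.99, adjusted p = 0.00126). These 3 calls held under all 14 alternatives. At the step of Agpat2, Agpat5 was also called higher (0.45, adjusted p = 0.0174) and Agpat1 lower (-0.51, adjusted p = 0.0286), calls that 6 alternatives ended for Agpat5 and 3 for Agpat1. Lclat1 fell by 0.51 (adjusted p = 0.0154), a call lost without DOX 1, DOX 3 or PBS 3, and the 6 lower calls came to 2 without DOX 1, and to 3 without DOX 3 or without PBS 3. Of 6 genes of triglyceride export, Apoc3, an apolipoprotein that slows triglyceride clearance, rose by 0.51 (adjusted p = 0.0204), a call that 7 alternatives ended.

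**Figure D4:**
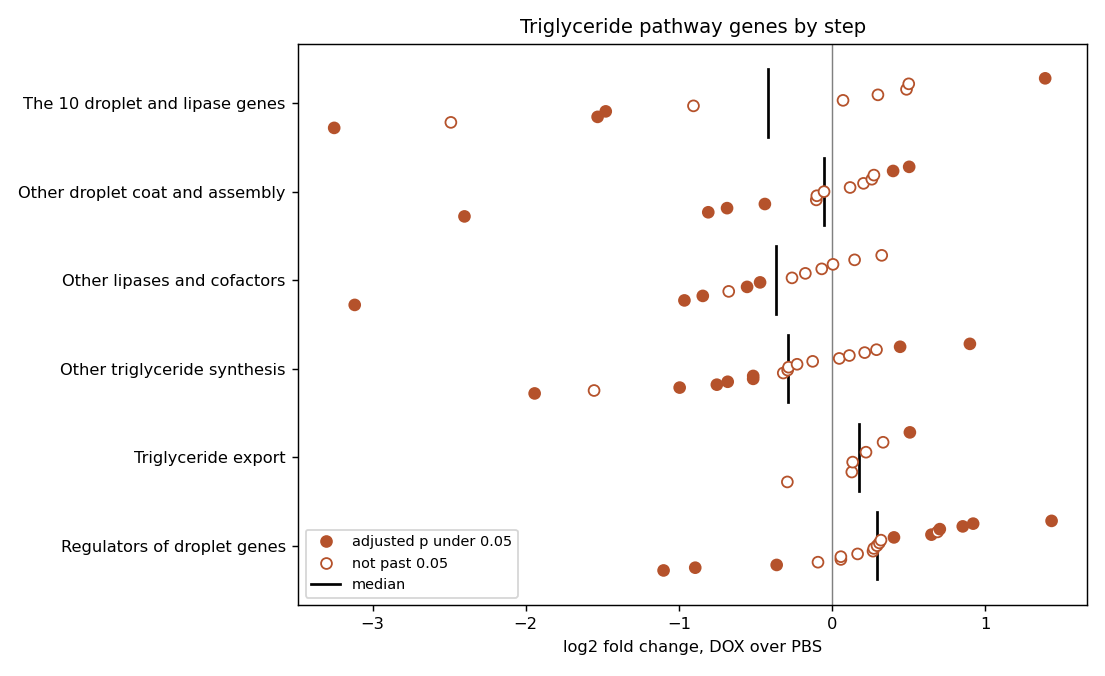
Log2 fold change, DOX over PBS, of each tested gene in the 10-gene set and in 5 lists of the pathway; filled points have an adjusted p under 0.05 (edgeR), and the vertical bars are list medians. The medians run from -0.42 for the 10 genes to 0.29 for the regulators.

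Among 19 regulators of droplet and triglyceride genes, 6 rose, 3 fell and 10 did not pass, with a median log2 fold change of 0.29. Ppara, the nuclear receptor that switches on fatty acid oxidation and several droplet genes, had 70.2, 125 and 76.9 CPM in DOX livers, against 165, 187 and 230 CPM in PBS livers. It fell (-1.10, edgeR adjusted p = 0.00769), and as for 9 of the 10 droplet genes, DOX 2 was the highest DOX library. Mlxipl, which codes for the glucose-responsive factor ChREBP, had 75.3 ± 4.69 CPM in DOX livers and 39.7 ± 7.59 CPM in PBS livers (0.92, adjusted p = 0.000985). Insig2, which holds SREBP in the endoplasmic reticulum, had 219 ± 34.2 CPM in DOX livers and 121 ± 10.1 CPM in PBS livers (0.86, adjusted p = 0.00135). These 3 calls held under all 14 alternatives. Insig1 rose by 0.71 (adjusted p = 0.0120), or 0.0540 without PBS 2 and 0.0568 and 0.0509 with limma at pseudocounts of 1 and 0.1. The list had 3 higher calls without PBS 2 and with limma, and 1 lower call without DOX 3, PBS 2 or PBS 3. Pparg, the fat cell regulator that can drive Cidec in fatty liver, had 21.3 ± 2.83 CPM in DOX livers and 20.4 ± 0.758 CPM in PBS livers (0.06, adjusted p = 0.753).

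Since whole liver was sequenced, fewer cells of a type and less RNA per cell cannot be told apart. Of 10 adipocyte markers, 7 were in the table and 4 were tested, while Lep, Cfd and Plin1 matched no symbol. Among the 4 tested, 1 gene, Slc2a4, was called higher, a call that 7 alternatives ended. The summed level of the 7 in the table was 43.6 to 50.6 CPM in DOX livers and 37.5 to 46.1 CPM in PBS livers. Adipoq, the hormone gene that defines adipocytes, had 0 reads in all 3 DOX libraries and 1 read in 1 PBS library, and Retn had 0 reads in all DOX libraries and 1 read in 1 PBS library. Of 10 hepatocyte markers 4 rose, and their summed level was 118211 to 147485 CPM in DOX livers and 114980 to 125658 CPM in PBS livers. Of 10 stellate cell markers, the cells that store retinyl esters in droplets of their own, 5 fell (2 without PBS 1, 3 without DOX 3) and 1 rose, and their summed level was 925 to 1248 CPM in DOX livers and 1469 to 1736 CPM in PBS livers. Lrat, the enzyme that makes retinyl esters, was among those that fell (21.1 ± 5.84 CPM in DOX livers and 35.2 ± 4.54 CPM in PBS livers, adjusted p = 0.0175), a call lost without PBS 1 or PBS 3. The lower stellate sum largely follows 2 collagen genes. Col3a1 had 238 ± 63.1 CPM in DOX livers and 657 ± 60.7 CPM in PBS livers, and Col1a1 had 87.4 ± 25.7 and 241 ± 52.0 CPM. Dcn went the other way, with 537 ± 103 CPM in DOX livers and 399 ± 63.4 CPM in PBS livers, and was not called (edgeR adjusted p = 0.0701). Of 10 macrophage markers 2 rose and 1 fell, calls that varied with the library left out (1 to 3 higher, 0 to 2 lower), and their sum was 2008 to 2430 CPM in DOX livers and 1897 to 2075 CPM in PBS livers. The part of these cell types in the changes of the droplet genes was not tested.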

How the data were processed

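The authors deposited a table of whole-number read counts per gene symbol and a table of FPKM values; neither aligner, counting program nor strand use is given in the sources used here. Per the labels' protocols, libraries came from total RNA with a SMARTER mRNA-seq kit; the submitters' processing notes list GRCm38, mm10 and hg38 with no role. The deposited FPKM is the count over a fixed gene length and the library's own total (99.9% of lengths whole within 0.01 bases). Genes were kept by filterByExpr (minimum count 10, total 15) and fitted with edgeR 4.0.16 (TMM, robust quasi-likelihood, biological coefficient of variation 0.155). In all, 14 alternatives were run, with DESeq2 1.42.0 and limma 3.58.1. Members and lists were chosen with earlier results of these data known; of 151 list entries, 4 matched no symbol. Beside the 10 genes and Bche, up to 4 called genes of a list, by smallest p, were to be named. Others spell out small counts or compare a family, and of these Lrat, Plin3, Cideb, Lpin2, Dgat1, Abhd5 and Pparg were picked after values were known. Scd1 and Dcn, each named for its part in a summed level, were also picked after values were known.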

Additional observations from a re-analysis of the deposited data

How the results depend on the processing

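The calls of Cidec and Plin2 held under all 14 alternatives, and Pnpla3 and Dgat2 passed under none. The count of genes called higher among the 10 was 0 with no filter and 2 with DESeq2's Wald test; that called lower was 5 with library size alone, DESeq2's Wald test and both limma fits. Leaving out 1 library gave 0 to 2 higher and 2 to 4 lower. Over all genes, library size alone gave 1028 higher and 3429 lower calls, limma on log2(FPKM + 1) 917 and 3202, limma on log2(FPKM + 0.1) 948 and 3227, and leaving out 1 library 1208 to 2440 higher and 1305 to 2348 lower. Cidea passed with library size alone (-1.06), DESeq2's Wald test (-0.90) and limma (-0.55 with pseudocount 1, -0.97 with 0.1). G0s2 passed in the same settings (-2.66, -2.49, -2.33 and -2.43), and Plin5 with DESeq2's Wald test (0.50). With no filter Plin4 (-1.54) and Lpin1 (1.38) did not pass. Dgat2 turned to -0.084 with library size alone, and to -0.0845 and -0.0850 with limma at pseudocounts of 1 and 0.1. Leaving out 1 library, the log2 fold change ran from -1.09 to -0.75 for Cidea, -1.82 to -1.25 for Plin4, -2.85 to -1.73 for G0s2, 0.19 to 0.39 for Pnpla2 and 1.02 to 1.58 for Lpin1. The cause of these shifts was not tested. Shared replicate numbers did not pair the samples: same-numbered libraries had deviations correlated at 0.0861, -0.0731 and -0.134, and DOX 2 correlated best with PBS 3 (0.192). With the replicate number as a block, Plin5 (0.52) and G0s2 (-2.29) passed, Lpin1 (1.35) did not, and 1633 genes were called higher and 1849 lower. Of the 10 genes, Cidea had the fewest reads a library, on average 31.3 in DOX livers and 74.0 in PBS livers.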

Other observations

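Of 13 clock genes 6 rose, 1 fell and 6 did not pass, with a median log2 fold change of 0.26. Bmal1, the core activator of the clock, had 13.8 ± 4.10 CPM in DOX livers and 2.33 ± 0.417 CPM in PBS livers (log2 fold change 2.56, edgeR adjusted p = 0.000112). Per1, one of the repressors that Bmal1 drives, had 78.0 ± 6.30 CPM in DOX livers and 39.0 ± 1.001 CPM in PBS livers (1.002, adjusted p = 0.000129). Ciart rose by 1.94 and Cry2 by 0.67, and these 4 calls held under all 14 alternatives. Of 17 genes that respond to fasting and feeding 4 fell, 1 rose and 12 did not pass, with a median of -0.22; the lower calls numbered 8 with limma on FPKM and 6 with library size alone and with DESeq2's Wald test. Cpt1a, which lets fatty acids enter mitochondria, fell by 0.91 and Pdk4, which spares glucose by blocking pyruvate dehydrogenase, by 1.35, and these 2 calls held under all 14 alternatives. Pck1, an enzyme of gluconeogenesis, rose by 0.59 (adjusted p = 0.0194), a call that 6 alternatives ended.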
